A study of Mus musculus with 8 samples.

Results

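The 37 Hox genes in the deposited tables, of 17353 genes in all, are described here for what they show about position along the colon in 8 libraries of mouse colonic mucosa. Members were every row named Hoxa, Hoxb, Hoxc or Hoxd with a number from 1 to 13 and nothing after it, which gave 11 HoxA, 10 HoxB, 7 HoxC and 9 HoxD genes. The animals were male wild-type C57BL/6J mice, 2 per group, all sampled on day 7. The Kuiyangling group drank 3% dextran sulfate sodium (DSS), which damages the lining of the colon, and was given this herbal formula at 10 g/kg as an enema. The mesalazine group drank 3% DSS and was given mesalazine, an anti-inflammatory drug for ulcerative colitis, at 50 mg/kg as an enema. The DSS model group drank 3% DSS and had saline enemas. The control group had saline enemas only. All enemas were 0.2 ml, so every group, controls included, carried the handling of an enema. The labels name colonic mucosa as the tissue without a segment, so position along the colon and treatment group cannot be told apart by the labels.

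Hox genes encode homeodomain transcription factors that lie in 4 clusters, and genes with the same number in different clusters are paralogues. Their order in a cluster follows the order of their expression along the body: low numbers are expressed toward the head and high numbers toward the tail. The adult gut keeps part of this pattern, in epithelium as well as in the mesenchyme beneath it. In the mouse colon the genes numbered 13 mark the distal colon and rectum, and lower numbers mark more proximal levels. Hoxa13 and Hoxd13 also shape the hindgut, the anal sphincter, the genital tract and the digits, and Hoxb13 is best known from the prostate, the rectum and the tail bud.

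The homeobox sequences of the 4 genes on which the comparison turns are shown because they are the part of each gene by which paralogues are recognised. Hoxb13, Hoxa13 and Hoxd13 are the paralogues of the tail end, and Hoxb9 was the member with the highest mean level per length. Each box is 180 bases in exon 2 of the gene, read from the GENCODE M21 transcripts on build GRCm38, 5′ to 3′ on the coding strand. They lie at chr11:96196020-96196199 (plus strand, Hoxb13), chr6:52258928-52259107 (minus strand, Hoxa13), chr2:74669930-74670109 (plus strand, Hoxd13) and chr11:96274659-96274838 (plus strand, Hoxb9). Capitals mark the 6 codons at the core of the third helix, which touches the DNA.
Hoxb13: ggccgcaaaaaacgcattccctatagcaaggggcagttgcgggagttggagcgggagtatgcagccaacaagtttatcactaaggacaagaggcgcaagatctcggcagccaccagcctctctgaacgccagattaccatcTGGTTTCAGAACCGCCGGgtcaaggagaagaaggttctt
Hoxa13: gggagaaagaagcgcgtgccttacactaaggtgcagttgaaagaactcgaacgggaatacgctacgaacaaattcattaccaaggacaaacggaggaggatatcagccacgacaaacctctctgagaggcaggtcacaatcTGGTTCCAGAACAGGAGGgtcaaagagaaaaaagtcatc
Hoxd13: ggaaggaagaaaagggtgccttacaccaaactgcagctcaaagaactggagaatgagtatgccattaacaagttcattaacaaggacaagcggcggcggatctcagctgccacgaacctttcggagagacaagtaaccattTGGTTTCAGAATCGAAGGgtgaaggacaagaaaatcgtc
Hoxb9: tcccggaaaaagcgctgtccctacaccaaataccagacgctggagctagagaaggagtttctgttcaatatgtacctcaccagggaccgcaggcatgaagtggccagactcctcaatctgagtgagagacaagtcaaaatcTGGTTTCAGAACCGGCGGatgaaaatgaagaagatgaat
The box of Hoxb13 was identical to that of Hoxa13 at 68.9% of bases and to that of Hoxd13 at 67.2%, and the boxes of Hoxa13 and Hoxd13 at 73.9%. Against Hoxb9 the identities were 60.0% for Hoxb13, 53.3% for Hoxa13 and 55.6% for Hoxd13. Over all members, the 38 pairs with the same number had a median identity of 81.1% (67.2% to 93.9%) and the 628 pairs with different numbers one of 61.7% (46.1% to 88.9%).

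The libraries held between 15560946 and 17843715 counts, and 3 counts, taken as the floor of detection, stood for 0.149 to 0.212 CPM (counts scaled to library sizes that were adjusted by the TMM method). The tissue markers were present throughout: the 10 general gut epithelial genes summed to between 21160 and 31880 CPM, and Cdx2, the homeobox regulator of intestinal identity, held 389 to 479 CPM in every library. Of the list for the squamous lining of the anal canal, 9 genes were in the table and summed to at most 5.24 CPM. Control 2 and mesalazine 1 were the libraries that stood apart from the rest for the Hox genes described here, and the log2 changes and count ratios of named members that use them are given with and without them. In mixed tissue, fewer cells of a kind and less RNA per cell cannot be told apart.

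HoxA, HoxB and HoxD were expressed and HoxC was close to silent. The 7 HoxC genes had 21 counts in all 8 libraries together, against 32222 for HoxB, 17189 for HoxA and 2802 for HoxD. Of the 37 members, 29 had at least 10 counts over the 8 libraries and 8 did not. The filter on low counts left 24 members for testing, 10 of HoxA, 9 of HoxB and 5 of HoxD, among 13381 genes. Hoxd13 was not among them, although control 2 held 312 counts of it, because the filter asks for expression in as many libraries as a group has.

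Levels between genes were compared by FPKM, the deposited counts per length and depth. Hoxb9, a patterning gene of the trunk, was the highest member on average and the most even, from 25.6 to 39.9 FPKM over the 8 libraries. Hoxb6 ran from 8.997 to 37.1 FPKM with a median of 23.1 FPKM. Hoxb13 ran from 0.129 to 129 FPKM with a median of 6.59 FPKM, and its mean of 22.5 FPKM rested on control 2. By median, Hoxb7, Hoxa7 and Hoxa10 came after Hoxb9 and Hoxb6, at 12.1, 9.81 and 9.17 FPKM. Hoxd1 and Hoxb1, the head end of their clusters, stayed at or below 0.101 FPKM in every library.

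The genes numbered 13 differed widely between libraries. Hoxb13 had 5.88 and 23.2 CPM in Kuiyangling mice, 0.212 and 0.642 CPM in mesalazine mice, 12.9 and 2.98 CPM in the DSS model and 19.9 and 175 CPM in controls, replicate 1 before replicate 2. Both mesalazine libraries lay below all others and control 2 lay far above all others. Hoxa13 had 7.36 and 15.0 CPM in Kuiyangling mice, 0.707 and 4.78 CPM in mesalazine mice, 16.3 and 7.82 CPM in the DSS model and 15.7 and 30.6 CPM in controls. The same libraries stood lowest and highest as for Hoxb13. Hoxd13 was at 0 counts in Kuiyangling 1 and 2, mesalazine 1 and DSS model 2, which allows up to 0.186, 0.156, 0.212 and 0.199 CPM. It had 1 count in mesalazine 2, 2 counts in DSS model 1, 10 counts in control 1 and 312 counts in control 2, or 19.2 CPM. Its detection above the floor was thus confined, among these 8 libraries, to the controls.

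**Figure D1:**
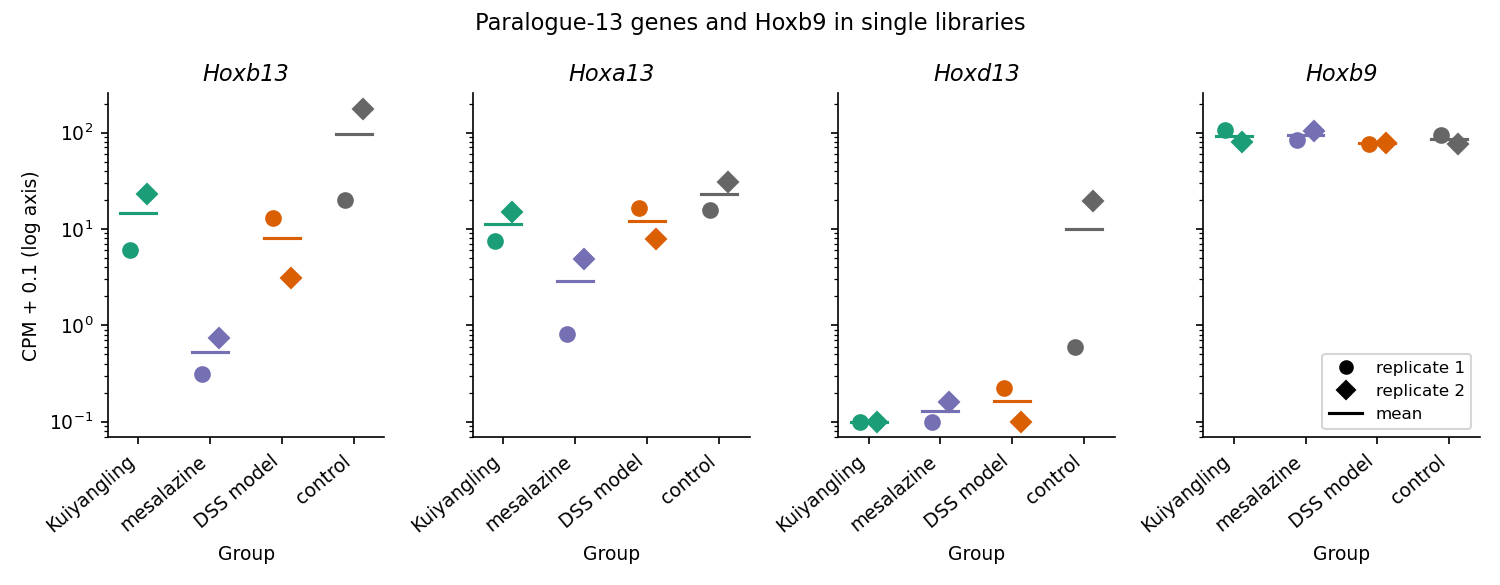
Level of Hoxb13, Hoxa13, Hoxd13 and Hoxb9 in CPM plus 0.1 on a log axis, with 1 symbol per library (circle replicate 1, diamond replicate 2) and a line at the mean of the 2 libraries of a group. Hoxb13 and Hoxa13 are lowest in mesalazine libraries and highest in control 2, Hoxd13 reaches 19.2 CPM in control 2 only, and Hoxb9 stays between 76.5 and 105 CPM in all 8 libraries.

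A mean paralogue number, with each member's number weighted by its FPKM, gives 1 value per library that moves up when the high numbers take a larger share. It was 7.40 and 8.29 in Kuiyangling mice, 6.98 and 7.04 in mesalazine mice, 8.23 and 7.89 in the DSS model and 7.87 and 10.6 in controls. The means were 7.84 ± 0.63 in Kuiyangling mice, 7.01 ± 0.04 in mesalazine mice, 8.06 ± 0.24 in the DSS model and 9.23 ± 1.92 in controls (SD, n = 2 each). Mesalazine libraries were the lowest of the 8, control 2 was the highest, and the Kuiyangling, DSS model and control 1 libraries overlapped between 7.40 and 8.29. These means are a description, with no test.
The share of Hox FPKM held by the genes numbered 11 to 13 was 8.07% and 20.6% in Kuiyangling mice, 1.98% and 3.57% in mesalazine mice, 17.8% and 10.7% in the DSS model and 15.2% and 58.6% in controls. The cluster that supplied the transcripts differed as well: HoxA held 18.4% and 33.1% of Hox FPKM in Kuiyangling mice, 12.5% and 17.2% in mesalazine mice, 45.4% and 37.1% in the DSS model and 41.6% and 32.6% in controls. Within HoxB alone the weighted number was 7.30 and 8.21 in Kuiyangling mice, 7.09 and 6.95 in mesalazine mice, 7.97 and 7.59 in the DSS model and 7.78 and 11.6 in controls. Within HoxA it was lowest in the mesalazine libraries, at 7.07 and 8.08, and between 8.30 and 8.88 in the other 6. Within HoxD it was 5.54 and 5.01 in mesalazine mice and 4.82 and 10.8 in controls, so control 1 was the lowest there. The Kuiyangling and DSS model libraries lay between 5.2 and 5.4 in HoxD.

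**Figure D2:**
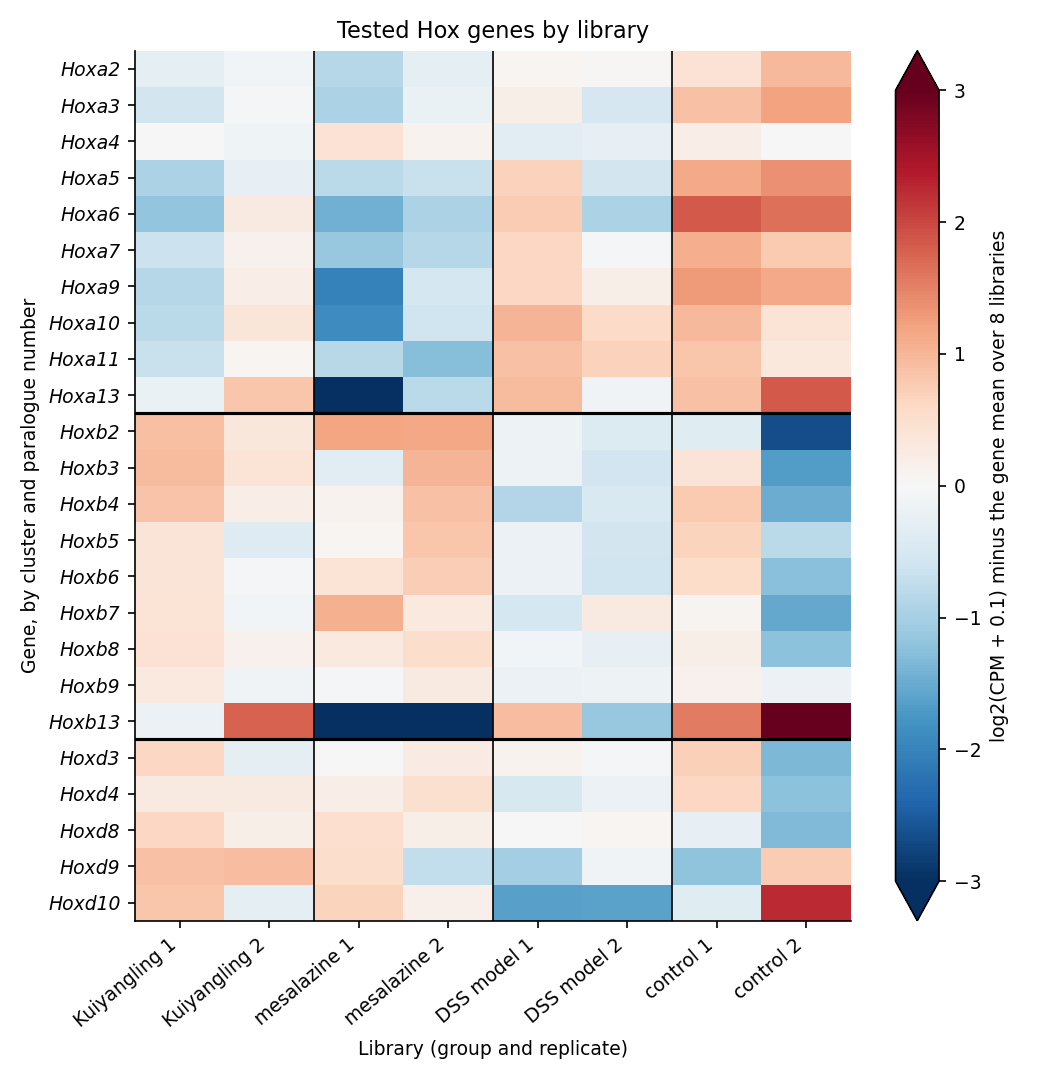
Each tested member (rows, by cluster and paralogue number) in each library (columns), as log2(CPM + 0.1) minus the mean of that gene over the 8 libraries, red above and blue below. In control 2 the HoxB genes 2 to 8 are below their means while Hoxb13 is far above its mean, and in both mesalazine libraries Hoxb13 and the HoxA genes 9 to 13 are below their means.

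The 2 control mice differed from each other along the HoxB and HoxD clusters. All 7 HoxB genes numbered 2 to 8 were lower in control 2 than in control 1, with a median log2 ratio of -1.81 (log2 of CPM plus 0.1), and so were the 3 HoxD genes numbered 3 to 8, with a median of -1.85. Hoxb6, for example, had 50.6 CPM in control 1 and 14.4 CPM in control 2. Hoxb13 and high numbers of HoxD went the other way. Control 2 exceeded control 1 by 8.79-fold for Hoxb13 (95% counting interval 7.91 to 9.78), by 38.8-fold for Hoxd13 (20.8 to 81.8), by 41.1-fold for Hoxd11 (6.88 to 1671, from 33 and 1 counts) and by 7.67-fold for Hoxd10 (3.21 to 22.3, from 37 and 6 counts). Hoxa13 was 1.96-fold higher in control 2 (1.70 to 2.26), while Hoxa10 had 27.9 CPM in control 2 and 41.5 CPM in control 1. Hoxa11 had 8.44 CPM in control 2 and 12.1 CPM in control 1, and Hoxb9 had 76.85 and 93.89 CPM in that order. Of the HoxA genes numbered 2 to 9, 3 were higher and 4 lower in control 2, with a median log2 ratio of -0.16. Intervals cover counting error only. Of the 24 members, 13 differed more than 2-fold between the control mice, or 54.2%, against 12.4% of all 13381 genes.

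The mice of each of the other groups also differed in the genes numbered 13. Between the Kuiyangling mice all 7 HoxB genes numbered 2 to 8 were lower in replicate 2, with a median log2 ratio of -0.54, and Hoxb13 was 3.94-fold higher in it (3.15 to 4.97). Hoxa10, Hoxa11 and Hoxa13 were 2.26-fold, 1.67-fold and 2.03-fold higher in Kuiyangling 2. In HoxA this was not confined to the high numbers. Of the 7 HoxA genes numbered 2 to 9, 6 were also higher there, with a median log2 ratio of 0.71. Between these mice 25.0% of members differed more than 2-fold, against 5.11% of all genes. Between the DSS model mice Hoxb13 was 4.32-fold higher in replicate 1 (3.12 to 6.11) and Hoxa13 2.08-fold higher (1.67 to 2.61), with 16.7% of members past 2-fold against 8.58% of all genes. Of the 7 HoxA genes numbered 2 to 9, 6 were also lower in DSS model 2, with a median log2 ratio of -0.65. Between the mesalazine mice Hoxa13 was 6.76-fold higher in replicate 2 (3.497 to 14.6) and Hoxa10 2.47-fold higher, but 25.0% of members past 2-fold stood against 22.5% of all genes there, so the Hox genes did not stand out from the rest. Hoxb13 had 11 counts in mesalazine 2 and 3 counts in mesalazine 1, a ratio of 3.02 whose counting interval of 0.799 to 16.9 includes equal levels. In each group the library with the higher Hoxb13 value also had more Hoxa13, but in mesalazine mice the difference in Hoxb13 was within counting error.

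**Figure D3:**
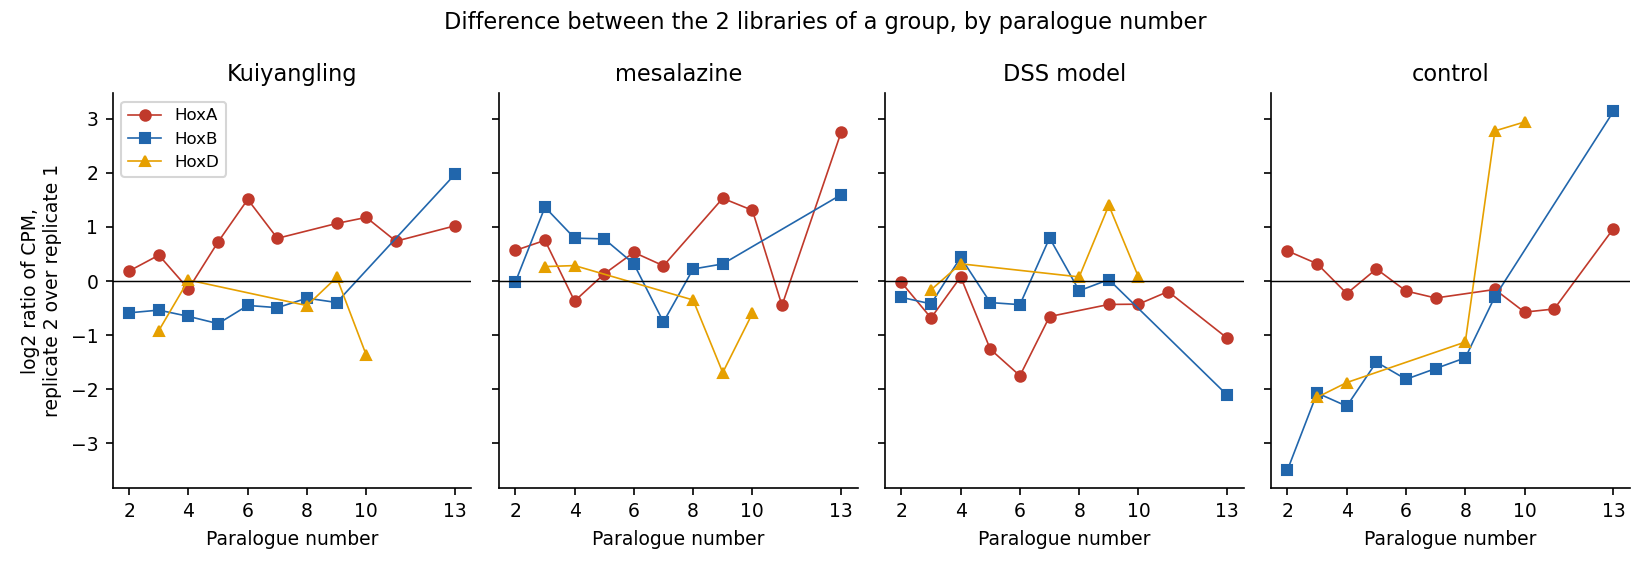
Log2 ratio of CPM between the libraries of each group, replicate 2 over replicate 1 with no prior count, against paralogue number for the tested members of HoxA (red circles), HoxB (blue squares) and HoxD (yellow triangles). In controls the HoxB and HoxD lines climb from below 0 at the low numbers to above 0 at the high numbers. In Kuiyangling mice only HoxB makes such a climb, from below 0 to 1.98 at number 13.

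DSS model against control asks which Hox genes differ with DSS in mice given saline enemas. Estimates for the HoxA genes numbered 2 to 9 were all below 0 (7 of 7, median log2 change -0.80), beside a median of -0.04 over all genes tested, whereas Hoxa10 and Hoxa11 of that cluster had estimates above 0. No member passed the test. Hoxa3, a gene of thymus and parathyroid development, had 11.1 and 6.89 CPM in the DSS model and 18.3 and 22.8 CPM in controls, with a log2 change of -1.19 (SE 0.38, edgeR quasi-likelihood adjusted p = 0.215). The DSS model libraries lay below both controls, and without control 2 the log2 change was -1.02. Hoxb13 averaged 7.94 ± 7.01 CPM in the DSS model and 97.4 ± 110 CPM in controls (SD, n = 2 each), with a log2 change of -3.61 (SE 1.03, edgeR adjusted p = 0.179). Without control 2 its log2 change was -1.32 (edgeR adjusted p = 0.673).
Hoxd13 had 2 counts in the DSS model and 322 in controls, a ratio 137-fold lower in the DSS model (95% counting interval 37.6 to 1136), and 312 of the 322 were from control 2. Without control 2 the ratio of DSS model over control was 0.130 (0.0139 to 0.612). Hoxd10, a gene of lumbar motor neurons and hindlimb, had 2 counts in the DSS model and 43 in controls, a ratio of 0.0547 (0.00641 to 0.210). Of the 43 counts 37 were from control 2, and without it the ratio was 0.217 with an interval of 0.0214 to 1.22, which includes equal levels. Hoxa13 averaged 12.1 ± 5.99 CPM in the DSS model and 23.1 ± 10.6 CPM in controls, with overlapping libraries and a log2 change of -0.94 (SE 0.68, edgeR adjusted p = 0.502), or -0.38 without control 2. Hoxa10, which patterns the uterus and lumbar spine, differed by 0.10 (SE 0.47, edgeR adjusted p = 0.928). Hoxa11, a gene of forearm and kidney development, differed by 0.19 (SE 0.37, edgeR adjusted p = 0.810). Without control 2 both estimates turned, to -0.16 for Hoxa10 and -0.0436 for Hoxa11.
By edgeR 0 of 24 members were called at an adjusted p under 0.05, where 0.247% of all genes were called, 0.194% higher and 0.0523% lower, and DESeq2 and limma also called 0. At an unadjusted p under 0.05 edgeR gave 5 members, all lower in the DSS model (Hoxa3, Hoxa5, Hoxa6, Hoxb13 and Hoxd10), or 20.8% against 14.8% of all genes (7.22% lower and 7.63% higher). The libraries did not overlap for 9 members lower in the DSS model, against 26.2% of all genes, and for 1 higher, against 27.2% of all genes. The 9 were the 7 HoxA genes 2 to 9, Hoxb13 and Hoxd10. Spans of Hoxa3, Hoxa4, Hoxa5 and Hoxa6 overlap in RefSeq, so their counts need not be independent. Other cell types differed between these groups as well. The 10 fibroblast genes summed to 117 and 174 CPM in the DSS model and 62.6 and 49.3 CPM in controls, with a median log2 change of 1.86 and 8 of 10 at an unadjusted p under 0.05. Dcn, a matrix proteoglycan with the smallest p of that list, had 11.7 and 41.8 CPM in the DSS model and 2.92 and 1.66 CPM in controls (edgeR adjusted p = 0.0623). Smooth muscle genes had a median log2 change of -1.66, with 6 of 9 at an unadjusted p under 0.05 and sums of 133 and 108 CPM in the DSS model and 210 and 127 CPM in controls. Actg2, a smooth muscle actin, had 1.26 and 1.13 CPM in the DSS model and 9.76 and 3.08 CPM in controls (edgeR adjusted p = 0.135). The monocyte, macrophage and neutrophil list summed to 42.1 and 65.2 CPM in the DSS model and 14.6 and 18.0 CPM in controls. No gene of these lists was at 0 in all libraries, and the part of these cells in the Hox values was not tested.

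Kuiyangling against the DSS model asks which Hox genes differ with this treatment in mice that drank DSS. The clusters leaned in opposite directions: 9 of 10 HoxA estimates were below 0 (median log2 change -0.48), while 9 of 9 HoxB estimates (median 0.55) and 5 of 5 HoxD estimates (median 0.59) were above 0, beside a median of 0.00 over all genes. No member passed the test. Hoxa11 had 4.21 and 7.01 CPM in Kuiyangling mice and 12.5 and 10.9 CPM in the DSS model, with a log2 change of -1.06 (SE 0.37, edgeR adjusted p = 0.996). Hoxa10 had 11.9 and 27.0 CPM in Kuiyangling mice and 42.6 and 31.7 CPM in the DSS model, with a log2 change of -0.93 (SE 0.48, edgeR adjusted p = 0.996). For both genes the Kuiyangling libraries lay below the DSS model libraries.
Hoxb4, known for its role in blood stem cells, had 12.0 and 7.63 CPM in Kuiyangling mice and 3.52 and 4.77 CPM in the DSS model, with a log2 change of 1.24 (SE 0.63, edgeR adjusted p = 0.996). For the genes numbered 13 the libraries of the groups overlapped. Hoxb13 averaged 14.5 ± 12.2 CPM in Kuiyangling mice and 7.94 ± 7.01 CPM in the DSS model (log2 change 0.87, SE 0.96, edgeR adjusted p = 0.996), and Hoxa13 averaged 11.2 ± 5.36 CPM in Kuiyangling mice and 12.1 ± 5.99 CPM in the DSS model (log2 change -0.11, SE 0.68, edgeR adjusted p = 0.999). The estimate for Hoxb13 turned to -0.43 without Kuiyangling 2, and that for Hoxa13 to 0.51 without DSS model 1 and to 0.28 without Kuiyangling 1. Hoxd10 had 19 counts in Kuiyangling mice and 2 in the DSS model, a ratio of 8.31 (95% counting interval 2.005 to 73.6), and Hoxd13 had 0 counts in Kuiyangling mice and 2 in the DSS model.
Here edgeR called 0 of 24 members and 0% of all genes, and DESeq2 and limma called 0 members. At an unadjusted p under 0.05 it gave 2 members, or 8.33% against 3.56% of all genes: Hoxa11 lower with Kuiyangling (1.58% of all genes) and Hoxd10 higher (1.98%). The libraries did not overlap for 11 members higher with Kuiyangling, against 21.9% of all genes, and for 3 lower (Hoxa2, Hoxa10 and Hoxa11), against 21.1%. The 11 held 6 HoxB genes, none numbered above 9, together with Hoxa4 and the HoxD genes 4, 8, 9 and 10. Fibroblast genes summed to 274 and 211 CPM in Kuiyangling mice and 117 and 174 CPM in the DSS model, and endothelial genes to 22.4 and 18.3 CPM in Kuiyangling mice and 6.41 and 12.5 CPM in the DSS model. Smooth muscle genes summed to 161 and 151 CPM in Kuiyangling mice and 133 and 108 CPM in the DSS model (median log2 change 1.21), and small intestinal genes to 583 and 443 CPM in Kuiyangling mice and 277 and 320 CPM in the DSS model. All 4 sums were higher in both Kuiyangling libraries, although no gene of these lists was called, and their part in the Hox values was not tested. The small intestinal list had a median log2 change of 0.76, but its gene with the smallest p, Fabp1, was lower with Kuiyangling. Fabp1 had 0 and 0.104 CPM in Kuiyangling mice, below the floor, and 0.566 and 1.06 CPM in the DSS model (edgeR adjusted p = 0.996).

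**Figure D4:**
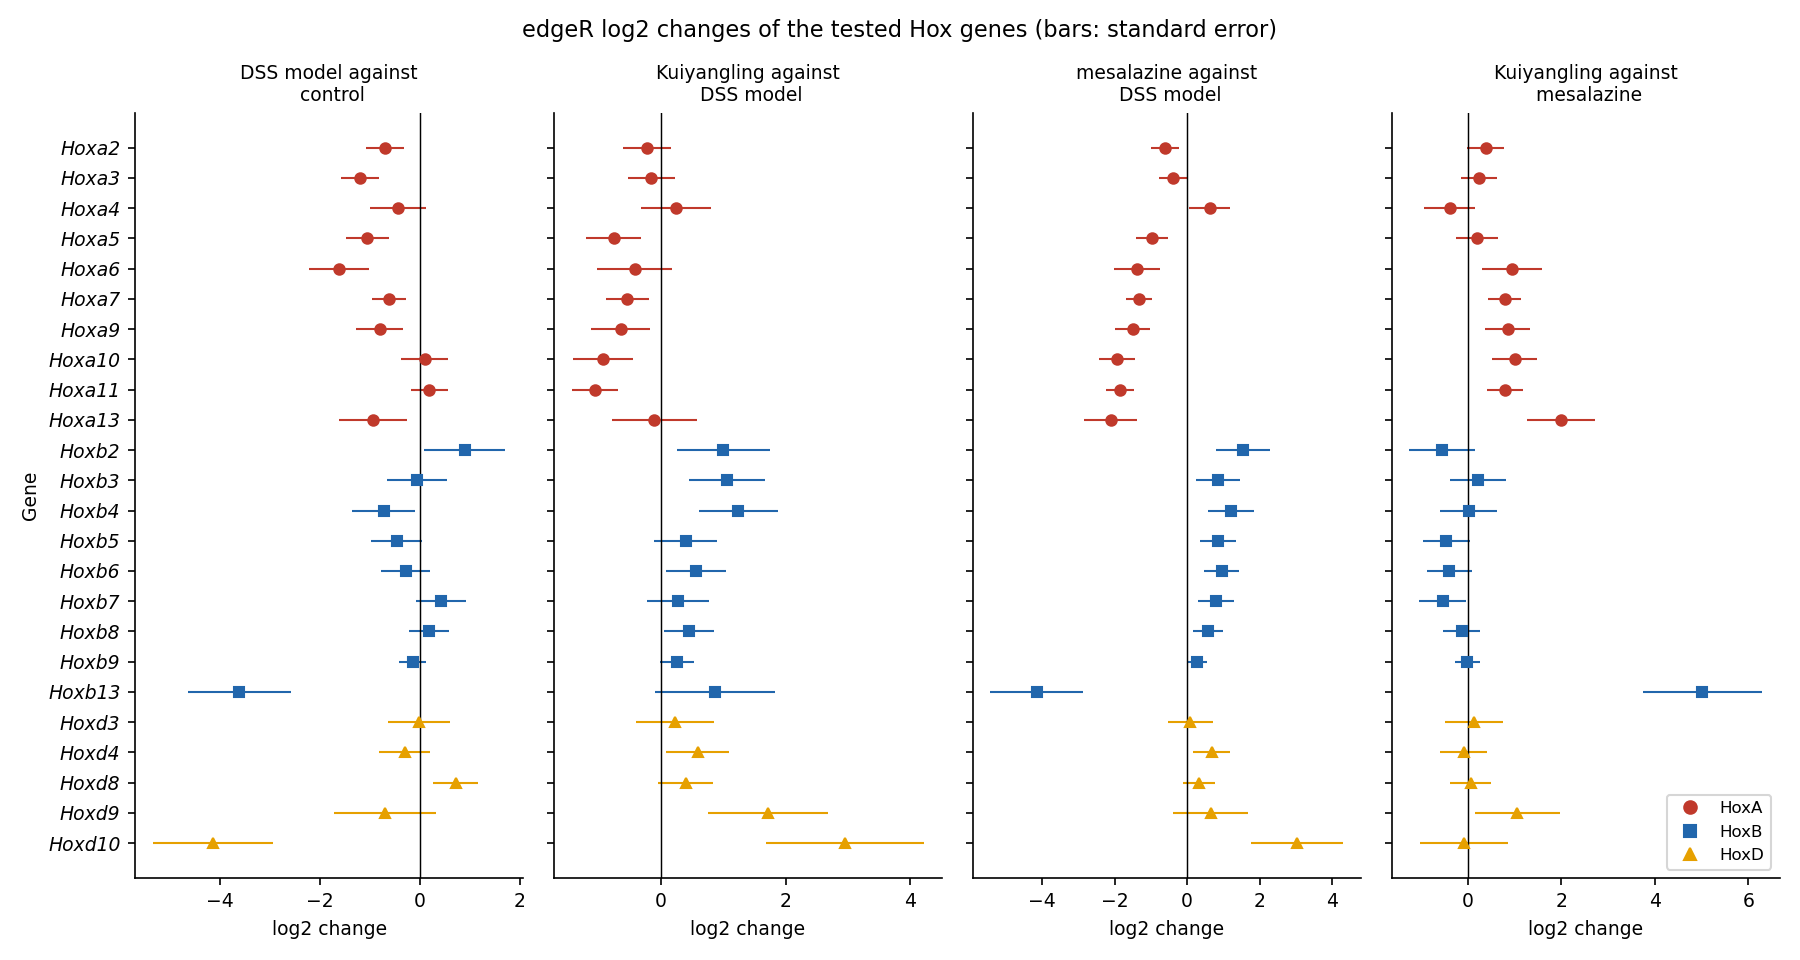
The edgeR log2 change of each tested member (points, with a bar of 1 standard error to each side) in the 4 comparisons, HoxA in red circles, HoxB in blue squares and HoxD in yellow triangles. Against the DSS model, both treatments have most HoxA points below 0 and the HoxB points numbered 2 to 9 above 0. Hoxd10 had 2 counts in the DSS model, so its points in the comparisons with that group depend on the prior count.

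Mesalazine against the DSS model gave estimates that split by cluster, with Hoxb13 apart from the rest of HoxB. Of the HoxA genes 9 of 10 had estimates below 0 (median log2 change -1.35), and the HoxB genes numbered 2 to 9 were all above 0 (8 of 8, median 0.85), as were 5 of 5 HoxD genes (median 0.65), beside a median of 0.04 over all genes. Hoxa11 had 3.75 and 2.74 CPM in mesalazine mice and 12.5 and 10.9 CPM in the DSS model, with a log2 change of -1.85 (SE 0.39, edgeR adjusted p = 0.399). Hoxa10 had 5.59 and 13.8 CPM in mesalazine mice and 42.6 and 31.7 CPM in the DSS model, with a log2 change of -1.93 (SE 0.49, edgeR adjusted p = 0.523). For both genes the groups did not overlap, and DESeq2 called both, with adjusted p = 0.00878 for Hoxa11 and 0.0163 for Hoxa10.
Hoxa7, a trunk patterning gene, had 8.07 and 9.80 CPM in mesalazine mice and 27.5 and 17.4 CPM in the DSS model (log2 change -1.33, SE 0.35, edgeR adjusted p = 0.523), and the log2 change was -1.21 without mesalazine 1. Hoxa13 averaged 2.75 ± 2.88 CPM in mesalazine mice and 12.1 ± 5.99 CPM in the DSS model (log2 change -2.11, SE 0.73, edgeR adjusted p = 0.678). Hoxb13 averaged 0.427 ± 0.304 CPM in mesalazine mice and 7.94 ± 7.01 CPM in the DSS model (log2 change -4.15, SE 1.28, edgeR adjusted p = 0.636). It was thus the 1 HoxB gene on the side of the HoxA genes. Hoxd10 had 18 counts in mesalazine mice and 2 in the DSS model, a ratio of 8.92 (95% counting interval 2.14 to 79.3), or 7.23 (1.44 to 69.9) without mesalazine 1, and Hoxd13 had 1 count in mesalazine mice and 2 in the DSS model.
At an adjusted p under 0.05 edgeR called 0 of 24 members and 0% of all genes, limma called 0 members and DESeq2 called 2. At an unadjusted p under 0.05 edgeR gave 7 members, or 29.2% against 5.49% of all genes: Hoxa7, Hoxa9, Hoxa10, Hoxa11, Hoxa13 and Hoxb13 lower with mesalazine (2.77% of all genes) and Hoxd10 higher (2.73%). The libraries did not overlap for 9 members lower with mesalazine, against 13.8% of all genes, and for 11 higher, against 14% of all genes. Without mesalazine 1 the log2 changes were -2.10 for Hoxa11, -1.44 for Hoxa10, -1.34 for Hoxa13 and -3.63 for Hoxb13, none called by edgeR. A list of small intestinal genes summed to 363 and 1115 CPM in mesalazine mice and 277 and 320 CPM in the DSS model. Over that list the median log2 change was 1.38, but not every estimate was above 0. The gene of the list with the smallest p, Apoa1, had 27.0 and 253 CPM in mesalazine mice and 2.20 and 1.59 CPM in the DSS model (edgeR adjusted p = 0.523). The part of this list in the Hox values was not tested.

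Kuiyangling against mesalazine sets both treatments side by side in mice that drank DSS. Both were compared above with the same 2 DSS model libraries, so likeness between those results is partly built in. This comparison does not set a group against them, although its SE and p-values rest on spread pooled over all 4 groups. Hoxb13 had 5.88 and 23.2 CPM with Kuiyangling and 0.212 and 0.642 CPM with mesalazine, a log2 change of 5.02 (SE 1.28, edgeR adjusted p = 0.999). Hoxa13 had 7.36 and 15.0 CPM with Kuiyangling and 0.707 and 4.78 CPM with mesalazine, a log2 change of 1.999 (SE 0.73, edgeR adjusted p = 0.999). The groups did not overlap for either gene. Hoxa7 had 11.3 and 19.6 CPM with Kuiyangling and 8.07 and 9.80 CPM with mesalazine, a log2 change of 0.79 (SE 0.35, edgeR adjusted p = 0.999). Without mesalazine 1 the log2 changes were 4.48 for Hoxb13, 1.22 for Hoxa13 and 0.65 for Hoxa7.
The remaining high numbers had log2 changes of 0.9996 for Hoxa10 (SE 0.48), 0.79 for Hoxa11 (SE 0.39) and -0.08 for Hoxd10 (SE 0.94), each with an edgeR adjusted p of 0.999. Without mesalazine 1 the value for Hoxa10 was 0.49, that for Hoxa11 was 1.03 and that for Hoxd10 turned to 0.23. Estimates were above 0 for 9 of 10 HoxA genes (median 0.79) and below 0 for 6 of the 8 HoxB genes numbered 2 to 9 (median -0.27), beside a median of 0.00 over all genes. At an adjusted p under 0.05 edgeR called 0 of 24 members and 0% of all genes, and DESeq2 and limma called 0 members. At an unadjusted p under 0.05 edgeR gave 3 members, all higher with Kuiyangling (Hoxa7, Hoxa13 and Hoxb13), or 12.5% against 1.9% of all genes (0.56% higher and 1.34% lower). The libraries did not overlap for 6 members higher with Kuiyangling, against 10.5% of all genes, and for 3 lower (Hoxa4, Hoxb2 and Hoxb6), against 11.6%. Smooth muscle genes summed to 161 and 151 CPM with Kuiyangling and 96.5 and 120 CPM with mesalazine, and fibroblast genes to 274 and 211 CPM with Kuiyangling and 206 and 126 CPM with mesalazine, and their part in the Hox values was not tested.

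Genes known to differ along the mouse colon were read in the same libraries. Aqp8, a water channel of the colon surface listed as distal, had 380 and 490 CPM in Kuiyangling mice, 83.3 and 399 CPM in mesalazine mice, 248.6 and 313 CPM in the DSS model and 690 and 1974 CPM in controls. Insl5, a hormone of distal enteroendocrine cells, had 6.25 and 18.2 CPM in Kuiyangling mice, 2.12 and 2.28 CPM in mesalazine mice, 15.0 and 6.16 CPM in the DSS model and 16.4 and 37.7 CPM in controls. For Insl5 the mesalazine libraries were the lowest and control 2 the highest, and the library of each group with more Hoxb13 had more Insl5, although in mesalazine mice by only 2.28 against 2.12 CPM. Of the 9 distal genes in the table only Insl5 and Scnn1a, a subunit of the epithelial sodium channel, were higher in every group in the library with more Hoxb13. Aqp8, for example, was lower in DSS model 1 than in DSS model 2, although DSS model 1 had more Hoxb13. The distal list was not uniform by library either: 7 of the 9 were highest in control 2, but Scnn1b, of the same channel, and the gut hormone gene Pyy were highest in mesalazine 1, at 14.9 and 112 CPM. Fxyd4, a subunit of the sodium pump, reached 3.70 CPM in control 2 and 0.693 CPM in control 1 and was at or below 0.156 CPM in the other 6 libraries.
Cyp2c55, a cytochrome P450 listed as proximal, had 3578 and 2738 CPM in Kuiyangling mice, 1331 and 3227 CPM in mesalazine mice, 1722 and 2283 CPM in the DSS model and 2233 and 921 CPM in controls, so it was lowest in control 2, and next lowest in mesalazine 1. The proximal list was not uniform either: 4 of the 9 genes read were highest in control 2, Atp12a and Mptx1 among them. However, 1 of these 4 had only 5 counts over all libraries and was not tested. Aqp4, a water channel, had 204 and 611 CPM in Kuiyangling mice, 158 and 187 CPM in mesalazine mice, 864 and 586 CPM in the DSS model and 568 and 523 CPM in controls, and was lowest in the mesalazine libraries. Atp12a, a potassium pump that was put on the proximal list although it is known from the distal colon, had 885 CPM in control 2, 63.1 CPM in Kuiyangling 2, 0.283 CPM in mesalazine 1 and between 3.21 and 21.6 CPM in the other 5 libraries. Mptx1, a mucosal pentraxin, had 2.77 and 3.65 CPM in the DSS model and 134 and 2150 CPM in controls, and it was the 1 gene of both position lists that passed the test, in the DSS model against control (edgeR adjusted p = 0.0220).

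**Figure D5:**
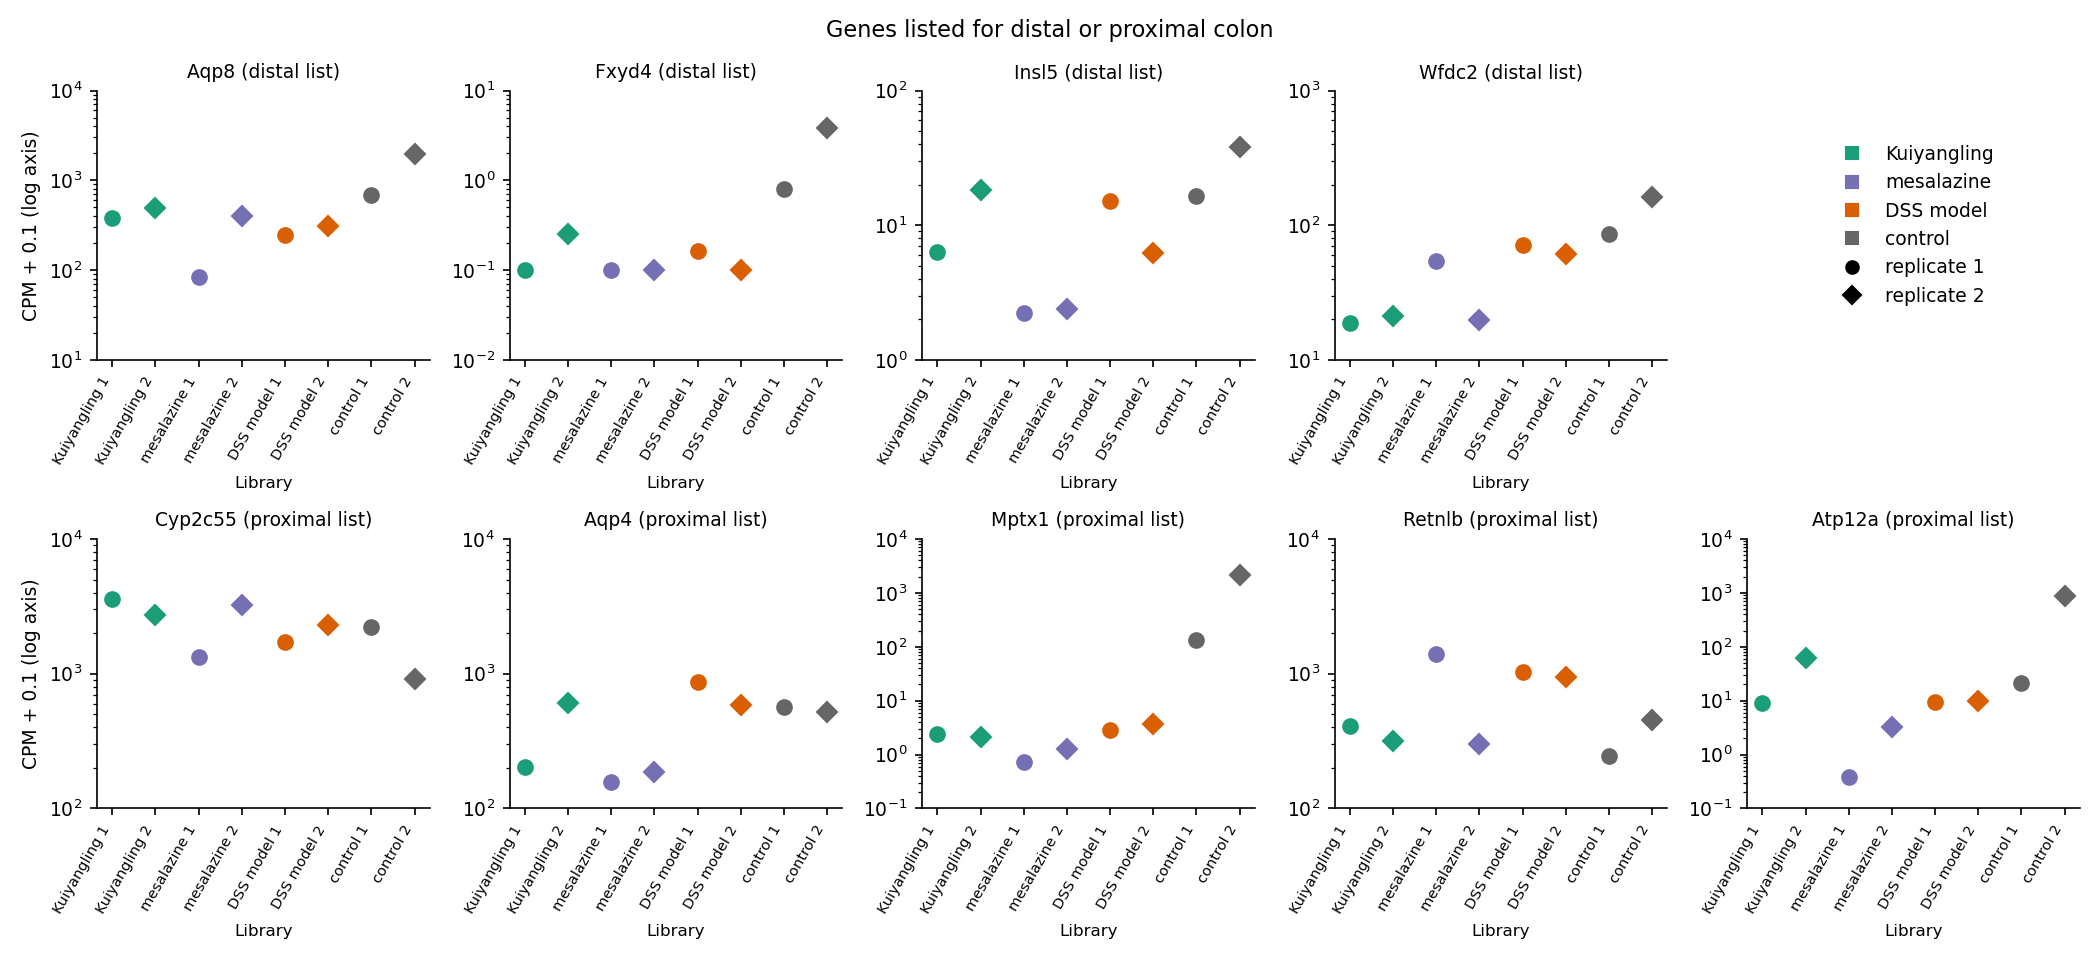
Level in CPM plus 0.1 on a log axis of 4 genes listed as distal (upper row) and of 5 genes listed as proximal (lower row), with 1 symbol per library (circle replicate 1, diamond replicate 2). Aqp8, Fxyd4, Insl5 and Wfdc2 of the distal list and Mptx1 and Atp12a of the proximal list are highest in control 2, where Cyp2c55 is lowest at 921 CPM.

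Regulators and partners of the Hox genes were read as well. Kmt2a, a histone methyltransferase that maintains Hox expression, had the smallest p of that list in the DSS model against control, with 28.0 and 21.7 CPM in the DSS model and 59.3 and 61.3 CPM in controls (log2 change -1.28, edgeR adjusted p = 0.218). It had 35.1 and 42.3 CPM in Kuiyangling mice and 17.5 and 47.3 CPM in mesalazine mice. Evx1, a homeobox gene that lies next to Hoxa13, had 1.18 and 1.61 CPM in Kuiyangling mice, 0.425 and 0.934 CPM in mesalazine mice, 4.28 and 3.05 CPM in the DSS model and 3.12 and 4.81 CPM in controls. Its log2 change was -1.39 for Kuiyangling (edgeR adjusted p = 0.996) and -2.40 for mesalazine (edgeR adjusted p = 0.503), each against the DSS model. None of the 17 tested regulators and partners was called in any of the 4 comparisons. Among all marker lists read, the called genes were Mptx1 and, of the monocyte, macrophage and neutrophil list, S100a8 and S100a9, higher in the DSS model than in controls. No tested gene of the lists for distal colon, small intestine, general epithelium, squamous epithelium, smooth muscle, fibroblast, endothelium, enteric neuron and glia, B and plasma cell or T and NK cell was called in the 4 comparisons. Cd79b of the B cell list was at 8.20 CPM in control 2 and between 0.314 and 0.778 CPM in the other 7 libraries, and its part in the Hox values of control 2 was not tested.

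Because the HoxB genes 2 to 8 were all lower in control 2 than in control 1, their promoters were read for the site TTTATG, bound by the Cdx factors, and for TTTACG, one of the sites preferred by Hox proteins of the tail end, on both strands over the 250 bases before the start. RefSeq (build GRCm38.p6) had 24 promoters of 22 members, among them Hoxb4 and Hoxb8 of that run. TTTATG was found in 5 of the 24 promoters, or 20.8%, namely those of Hoxa7, Hoxb8, Hoxd3, Hoxd4 and 1 of Hoxd11, beside 10.8% of all 32851 promoters. TTTACG was found in 1 of the 24, or 4.17%, beside 2.61% of all promoters. The promoter of Hoxb8, at chr11:96281655-96281904 on the plus strand, held both and is shown for that reason, with TTTATG (or CATAAA, its reverse) present 2 times and TTTACG (as CGTAAA) 1 time in capitals and without overlap.
Hoxb8: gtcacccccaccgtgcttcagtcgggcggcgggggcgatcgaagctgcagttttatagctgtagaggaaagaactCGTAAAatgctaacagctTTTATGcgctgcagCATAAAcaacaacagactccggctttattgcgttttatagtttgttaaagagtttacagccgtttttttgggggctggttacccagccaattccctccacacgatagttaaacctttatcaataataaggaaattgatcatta
No match was found in the windows of Hoxa13 and Hoxd13, and Hoxb13 had no promoter among those read. A match is a description of the letters only.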

How the data were processed

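Polyadenylated RNA was sequenced from 8 samples, with libraries made by a stranded mRNA kit from RNA with an integrity number of at least 7, per the labels' protocols. The authors deposited read counts as whole numbers for each gene, and the submitters' processing notes list Trimmomatic and HISAT2 among the tools. Build, annotation, counter and strand setting are not given in the sources used here. Without the strand setting a gene and an overlapping or antisense partner cannot be told apart: the RefSeq spans of 15 of the 24 tested members overlap another gene, and 9 of them another member. The deposited FPKM were found to equal the counts over a single length per gene and over the column total. This was checked for the 14183 genes with over 5 counts in 2 or more libraries. Headers gave group and replicate, and the mesalazine headers are spelled in different ways.

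CPM used TMM library sizes. With edgeR 4.0.16 (R 4.3.3), 13381 of 17353 genes passed filterByExpr and were fitted together over all 8 libraries with a mean per group. Quasi-likelihood F tests were adjusted by Benjamini-Hochberg over all of these genes, with calls at 0.05. Alternatives were other size factors, no filter, only the 4 libraries compared, a replicate block, DESeq2 1.42.0, limma 3.58.1 on log2(FPKM + 0.1) and log2(FPKM + 1), and each library left out. The edgeR steps were tested on simulated counts. Counting intervals are exact binomial at 95%. The labels tell the mice of a group apart by number only. The edgeR p-values rest on the spread between the 2 mice within a group, pooled over the 4 groups and drawn toward that of other genes. Log2 changes are given for members numbered 10 to 13 and for the 3 with the smallest p in each comparison, with the count ratio in their place where a group had 3 or fewer counts. Genes named from other lists had the highest mean or, in a comparison, the smallest p of their list, except Scnn1a, Scnn1b and Pyy, which were chosen after their values were seen. The members, lists and rules were chosen with earlier results of these data known.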

Additional observations from a re-analysis of the deposited data

How the results depend on the processing

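The limits lie in 2 mice per group and in single libraries. No member was called in any of the 4 comparisons under other size factors, with only the 4 libraries compared, with limma or with any library left out, where the lone mouse of a group is assumed to vary like the others. Without the filter on low counts edgeR called 3 members in the DSS model against control (Hoxb13, Hoxd10 and Hoxd13), 3 in mesalazine against the DSS model (Hoxa10, Hoxa11 and Hoxb13) and 1 in Kuiyangling against mesalazine (Hoxb13). DESeq2 called 2 in mesalazine against the DSS model. The cause was not tested. Over all genes, the DSS model against control gave 33 calls by edgeR, 487 without the filter, 425 by DESeq2, 19 by limma on log2(FPKM + 1), and 1 to 195 with a library left out, the lowest without control 2. Kuiyangling against the DSS model gave 0 by edgeR, 11 without the filter, 13 by DESeq2 and 21 with only the 4 libraries compared. Mesalazine against the DSS model gave 0, 104 without the filter and 81 by DESeq2, and Kuiyangling against mesalazine 0 and 3 without the filter.

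With the replicate block, 0 members were called in each comparison, and the all-gene calls in the DSS model against control were 50. In that comparison the block moved the log2 change of Hoxb13 from -3.61 to -2.72 and that of Hoxa13 from -0.94 to -0.69. The numbers do not pair the mice: between groups, correlations of the differences between same-numbered mice ran from -0.31 to 0.16.

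Of 146 log2 changes of named members under these alternatives, 133 kept direction and side of the threshold, 7 passed it and 6 turned. The turned values were -0.0514 and -0.0499 (pseudocounts 0.1 and 1) under limma for Hoxa10 in the DSS model against control, 0.0328 and 0.0315 for Hoxa13 in Kuiyangling against the DSS model, and 0.0106 and 0.0128 for Hoxd10 in Kuiyangling against mesalazine. With a library left out, 8 of 168 turned. The ranges were -0.16 to 0.41 for Hoxa10 and -0.0436 to 0.46 for Hoxa11 in the DSS model against control, -0.71 to 0.51 for Hoxa13 and -0.43 to 2.28 for Hoxb13 in Kuiyangling against the DSS model, and -0.92 to 0.46 for Hoxd10 in Kuiyangling against mesalazine. Hoxb13 in the DSS model against control ranged from -5.03 to -1.32.

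The mean paralogue number was 6.92 in mesalazine mice by CPM and 6.34 without Hoxb9, and 7.79 in the DSS model without Hoxb9. By group mean, mesalazine mice stayed lowest and controls highest under CPM and without Hoxb9, but the place of the controls rested on control 2: control 1 alone, at 7.87 by FPKM, 7.55 by CPM and 7.65 without Hoxb9, was below the DSS model mean each time. Division by summed epithelial FPKM cannot change it, by construction.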
